A study of Homo sapiens and Mus musculus with 4 samples.

Results

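The distal ATF4 peaks of KG1a cells are those that lie in the space between protein-coding genes. A peak was counted as distal when its centre, the middle of its interval, lay on chromosomes 1 to 22, outside every protein-coding gene of the RefSeq table for GRCh38 and more than 10 kb from any protein-coding gene end. Of the 873 peaks in the deposited KG1a list, 860 lay on these chromosomes and 329 of them were distal, which is 38.3% (Wilson 95% interval 35.1% to 41.5%). Of the other peaks, 235 lay within 10 kb of a protein-coding gene end and 296 lay inside a protein-coding gene more than 10 kb from any end. Distal space makes up 50.6% of the span of these chromosomes, so distal peaks were sparser. Their density was 0.226 per Mb against 0.468 near gene ends and 0.322 deep inside genes. With the longest stretch free of annotated genes left out of each chromosome, the distal density was 0.253 per Mb. The name holds for protein-coding genes alone. The centres of 240 distal peaks (72.9%, 67.9% to 77.5%) lay in no annotated gene of any kind, and the others lay mainly in genes for long non-coding RNA (lncRNA).

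KG1a is an established human acute myeloid leukaemia line, grown here with 20% serum. The series compared chromatin precipitated with an anti-ATF4 antibody with input chromatin taken without antibody, in KG1a and in bone marrow cells of C57BL/6 mice. Each of the 4 groups has 1 library, so no value below has a replicate error. Intervals on shares cover counting error only, and every test describes the deposited list and not the spread between cultures. The list gives only the position of each peak, so the read depth and the height of a peak are unknown and a weak peak cannot be told from a strong one. The mouse list, with 83088 peaks, was not used.

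ATF4 is a basic leucine zipper transcription factor whose mRNA is translated more when stress kinases phosphorylate the initiation factor eIF2. It binds DNA as a dimer, often with a member of the C/EBP family, at a composite site with the core TGATGNAA. Factors of this kind bind both at start sites and at enhancers, which can lie far from the gene they act on and often lie within or beside lncRNA genes.

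The sequences below show what stood under distal peaks that sat on the annotated start site of an lncRNA gene, where RefSeq promoter windows could be matched. Each window runs from 250 bases before to 50 bases after a start site. Such a window was touched by 8 of the 329 distal peaks (2.43%), and all 8 windows belonged to lncRNA genes. Among peaks near gene ends 46 of 235 (19.6%) touched at least 1 window. The 3 stretches printed belong to the distal peaks earliest in the deposited list among the 8, and all 300 bases of each lay inside the peak. They read 5′ to 3′ on the strand of the lncRNA gene, and capitals mark matches to TGATGNAA on either strand.
LOC102724467 (chr16:87779099-87779398, minus strand): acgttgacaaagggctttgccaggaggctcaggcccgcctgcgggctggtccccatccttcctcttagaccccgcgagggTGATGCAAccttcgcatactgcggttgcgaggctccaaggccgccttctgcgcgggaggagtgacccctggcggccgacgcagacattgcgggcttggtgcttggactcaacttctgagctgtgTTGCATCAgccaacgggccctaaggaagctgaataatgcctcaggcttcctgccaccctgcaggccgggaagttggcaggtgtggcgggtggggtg
LOC124904731 (chr19:47244146-47244445, minus strand): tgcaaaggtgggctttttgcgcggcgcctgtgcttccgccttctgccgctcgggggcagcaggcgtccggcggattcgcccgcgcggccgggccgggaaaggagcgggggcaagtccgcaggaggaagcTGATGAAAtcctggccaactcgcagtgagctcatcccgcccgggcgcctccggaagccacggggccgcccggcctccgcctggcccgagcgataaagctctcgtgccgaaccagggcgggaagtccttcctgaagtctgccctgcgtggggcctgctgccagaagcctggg
MIATNB (chr22:26672593-26672892, plus strand): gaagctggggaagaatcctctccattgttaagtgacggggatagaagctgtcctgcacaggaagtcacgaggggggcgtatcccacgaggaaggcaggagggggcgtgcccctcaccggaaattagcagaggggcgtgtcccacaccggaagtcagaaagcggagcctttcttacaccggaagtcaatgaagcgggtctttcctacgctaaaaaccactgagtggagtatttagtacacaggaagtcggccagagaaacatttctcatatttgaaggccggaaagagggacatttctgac
The LOC102724467 stretch holds TGATGCAA at base 81 from its 5′ end and the reverse form TTGCATCA at base 205, with their first bases 170 and 46 bases before the start site. Among all 35116 promoter windows in the RefSeq table, 36 (0.103%) hold TGATGNAA at least 2 times on either strand, and 5 (0.0142%) hold its form TGATGCAA, the one seen in this stretch, at least 2 times. The LOC124904731 stretch holds TGATGAAA at base 130, with its first base 121 bases before the start site. No match was found in the MIATNB stretch, which says only that these letters are not in this window. The matches describe the sequence and do not show where ATF4 sat.

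Over the 8 stretches that distal peaks covered, 4 of them shorter than a whole window, TGATGNAA was found in 2. Counted over the whole windows that distal peaks touched, it was in 3 of 8 (37.5%). For the windows touched by peaks near gene ends the count was 7 of 60 (11.7%), and 1270 of all 35116 windows (3.62%) held a match. The cyclic AMP response element TGACGTCA, a site for related factors, was found in 0 of the 8 distal stretches and in 1.85% of all windows. TTGCNNAA, a site built from C/EBP core letters, was found in 1 of the 8 and in 10.5% of all windows. That match lay under the peak at LOC105369851. On either strand, no match to TGACGTCA or TTGCNNAA can share bases with a match to TGATGNAA. The other windows touched were those of LOC105369368, LINC02036, LOC124909370 and MYOSLID-AS1. The sequence under the other distal peaks was not analysed here.

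The peak at LOC102724467 was the widest of all 329 and stood in place 6 of the deposited list. It spans 1023 bp at chr16:87778463-87779485, and its centre lies 174 bp inside the lncRNA gene from the annotated start. The nearest protein-coding gene, KLHDC4, encodes a kelch-domain protein and ends 12.99 kb away, so the peak is distal by a margin of a few kilobases. Another lncRNA gene, LOC105371399, lies between KLHDC4 and the peak.

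The peak at LOC124904731 stood in place 14 and spans 453 bp at chr19:47244143-47244595. Its nearest protein-coding gene is BBC3, which encodes the pro-apoptotic BCL2 family protein PUMA. The peak lay 11.5 kb upstream of BBC3, and CCDC9 began 12.2 kb away on the other side. The start site of LOC124904731, read away from CCDC9, lay 174 bp from the peak centre. Both peaks covered an annotated non-coding start, as the map of these neighbourhoods shows. Their early place followed from the choice, since they were taken as the earliest distal peaks that touched a promoter window. Of the 12 distal peaks within 1 kb of an lncRNA gene end, 2 stood in the first 25% of the list (16.7%, 4.70% to 44.8%). The share for all distal peaks was 65 of 329 (19.8%), and this difference was not tested.

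**Figure D1:**
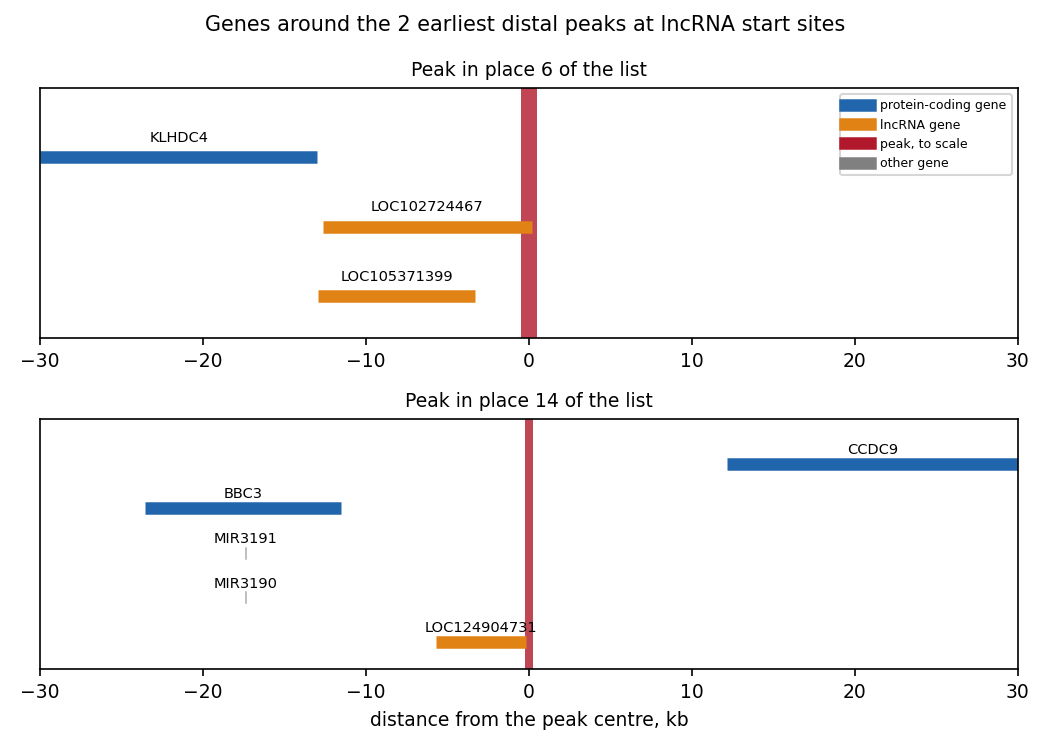
Genes around the distal peaks in places 6 and 14 of the list, drawn to scale, with distance from the peak centre in kb on the horizontal axis; blue bars are protein-coding genes, orange bars lncRNA genes, grey ticks miRNA genes and the red band the peak. In each panel the peak covers the end of 1 lncRNA gene, with KLHDC4 12.99 kb away above and BBC3 11.5 kb away below.

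MIATNB starts at the peak in place 254, which is 728 bp wide (chr22:26672457-26673184) and the third widest of the distal peaks. Its centre lies inside MIAT, an lncRNA gene first described for its association with myocardial infarction, and the nearest protein-coding gene is CRYBA4, a lens crystallin gene, at 42.2 kb. The second widest distal peak, in place 53 with 813 bp (chr19:1701596-1702408), touched no annotated gene. It lay 49.4 kb upstream of TCF3, which encodes the E proteins E12 and E47 of B-cell development.

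Some genes with known roles in the ATF4 response or in blood cells were the nearest gene to a distal peak. Of 134 listed genes on chromosomes 1 to 22, in 9 lists, 6 were nearest to a distal peak (4.48%), against 310 of all 19126 protein-coding genes (1.62%). The lists were drawn up with earlier results of these data known, and no test was made. Of the 20 genes of the integrated stress response 2 were among the 6, BBC3 and NDRG1. NDRG1, a stress- and hypoxia-responsive gene on chromosome 8, had a 323 bp peak in place 408 at a distance of 30.6 kb.

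Hypoxia and glycolysis genes gave 2 of 15. SLC2A1, which encodes the glucose transporter GLUT1, had a 319 bp peak 16.1 kb downstream (chr1:42909102-42909420, place 745). EGLN3, a prolyl hydroxylase that marks hypoxia-inducible factor for degradation, had a 362 bp peak 156 kb upstream (chr14:34106700-34107061, place 450), inside the lncRNA gene LOC102724945. Both peaks came late or in the middle of the list. The SLC2A1 peak was just below the lower quartile of distal widths, 322 bp, and the EGLN3 peak just below the upper one, 365 bp.

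Among 13 myeloid genes, 1 was nearest to a distal peak. CEBPA, the myeloid regulator whose family pairs with ATF4, had a peak 16.3 kb downstream (chr19:33283466-33283775, place 725). At 310 bp it had the smallest width in the list. Among 20 stem cell regulators, KIT, the receptor for stem cell factor, had a 317 bp peak 38.5 kb upstream (chr4:54619254-54619570, place 416). No member of the lists for amino acid synthesis (15 genes), amino acid transport (9), tRNA charging (14), other blood lineages (15) or autophagy (13) was the nearest gene to a distal peak. A nearest gene is a position on the map and was not tested as a target.

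Distal peaks lay a median of 129 kb from the nearest protein-coding gene end, with quartiles of 37.45 kb and 336 kb and a range of 10.4 kb to 3717 kb. The lower limit is set by the rule. Distances past 50 kb were found for 221 peaks (67.2%, 61.9% to 72.0%), past 100 kb for 186 (56.5%), past 500 kb for 53 (16.1%, 12.5% to 20.5%) and past 1000 kb for 16 (4.86%, 3.02% to 7.75%). The bases that meet the same rule had a median distance of 173 kb, and 75.6% of them lay past 50 kb, 26.5% past 500 kb and 14.0% past 1000 kb. Those bases include gaps of the assembly, which cannot hold a peak and whose positions were not used here. As a stand-in, the longest stretch without any annotated gene was taken out of each chromosome. That removed 10.98% of the distal bases and left 72.6% past 50 kb, 18.0% past 500 kb and 5.29% past 1000 kb, and from 100 kb on each of these base shares lay within the interval of the peak share. The stretches taken out are not all gaps, since they held 2 of the 329 peaks, and the peak shares still count those 2.

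**Figure D2:**
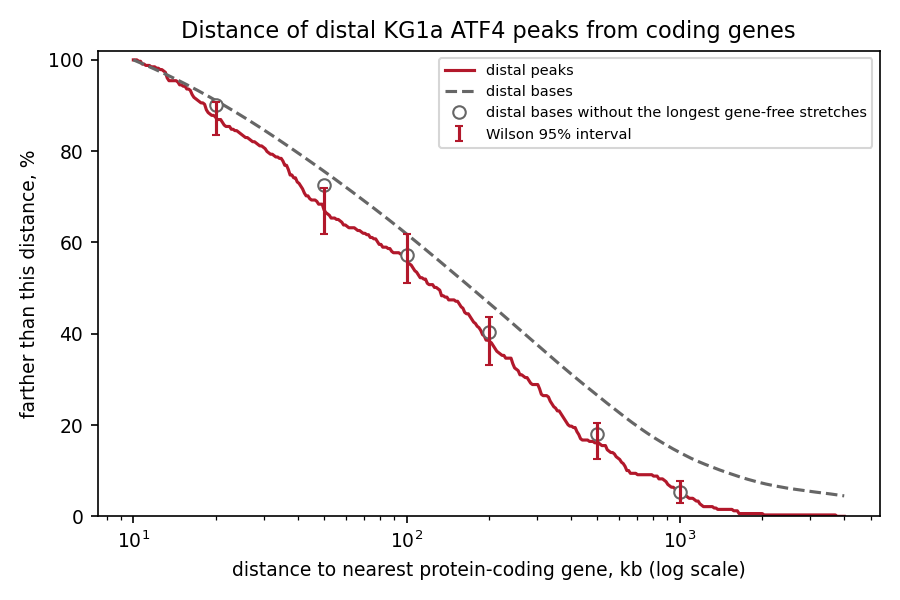
Share of distal peaks (red line) and of distal bases (dashed line) that lie farther from the nearest protein-coding gene than the distance on the horizontal axis, in kb on a log scale; bars are Wilson 95% intervals and open circles the bases without the longest gene-free stretches. The peak line lies below the dashed line at 20 kb and each longer distance marked, at 16.1% against 26.5% at 500 kb, and close to the open circle of 18.0%.

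The rule's limit fell between peaks with like distances. Just inside it were the peaks nearest to BAALC at 10.4 kb, WNT7A at 10.7 kb, TMC1 at 10.7 kb and SPOCD1 at 11.1 kb. Just outside it were those nearest to SMR3A at 9.69 kb, MDM4 at 9.42 kb, ITPRIPL1 at 9.19 kb and CRELD2 at 8.78 kb. The peaks just inside were wider than most, with 369 bp at BAALC, 514 bp at WNT7A, 498 bp at TMC1 and 619 bp at SPOCD1, all above the upper quartile of distal widths, 365 bp.

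The nearest protein-coding genes of the 329 peaks were 310 different genes, of which 294 were nearest to 1 peak, 13 to 2 and 3 to 3. The 3 genes with 3 peaks each were LRFN5, which encodes a synaptic adhesion protein, ZPLD1, and LOC124903401, a gene with no descriptive name. Their peaks were far apart, as at ZPLD1, where the distances were 312, 623 and 953 kb. The promoter table gave the strand of the nearest gene for 255 peaks. Of these, 133 (52.2%, 46.0% to 58.2%) lay on the side of the gene's start. Within 50 kb the count was 52 of 85 (61.2%, 50.5% to 70.8%), and this share was not tested. For 74 peaks the strand was not used.

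Far from genes the peaks had ordinary widths. The 10 farthest lay between 1.18 Mb and 3.72 Mb from a protein-coding gene end and were 311 to 414 bp wide. A peak in place 215 (chr18:39797065-39797399) lay 2.02 Mb from LOC105372073, with the lncRNA gene LINC01901 at 43.1 kb. The peak nearest to SLC39A10, a zinc transporter gene, lay 1.65 Mb upstream of it (chr2:193967760-193968120), and its nearest annotation of any kind was the pseudogene GLULP6 at 161 kb. Peaks 1.64 Mb from IFTAP (chr11:38295620-38295993) and 1.56 Mb from ACVR2A, an activin receptor gene (chr2:146287192-146287502), lay inside lncRNA genes without descriptive names.

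Gene deserts, taken here as stretches of at least 1 Mb between neighbouring protein-coding genes, held 123 of the 329 distal peaks (37.4%, 32.3% to 42.7%). The 303 deserts make up 46.8% of distal bases, and 97 of them held a peak. Some deserts are bounded by genes whose listed positions may be those of other scaffolds, such as GSTT1 on chromosome 22, and these were kept. Density was 0.181 distal peaks per Mb in deserts and 0.267 per Mb in other distal space. Without the longest gene-free stretches the desert share was 37.0% of peaks against 40.3% of bases, and the densities were 0.232 and 0.267 per Mb. Most of the gap between peaks and bases thus went with those stretches. Deserts of at least 3 Mb held 26 peaks (7.90%, 5.45% to 11.3%), against 18.3% of distal bases. Without the gene-free stretches they held 24 of 327 peaks (7.34%), against 8.61% of bases.

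The most peaks in a desert were 3, found in each of 6 deserts. The shortest of these, 1.56 Mb between LOC124903401 and FLRT2 on chromosome 14, had 1.93 peaks per Mb. A desert of 2.17 Mb between FBXO33 and LRFN5 on the same chromosome had 1.38 per Mb, and the others were between FANCL and LOC124906010, ZPLD1 and ALCAM, NCAM2 and MRPL39, and LOC124903767 and SHCBP1. Peaks inside deserts were like other distal peaks in width and annotation. Their median width was 341 bp against 339 bp, 10.6% against 10.2% were wider than 400 bp, and 25.2% of each had their centre in an lncRNA gene.

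Few distal peaks lay near the longest gene-free stretch of their chromosome, but those that did included very early entries of the list. Only 2 of 329 (0.608%, 0.167% to 2.19%) were inside such a stretch, against 10.98% of distal bases, and 17 (5.17%, 3.25% to 8.12%) were inside or within 5 Mb of one, against 19.6%. The 2 inside were the peaks in places 2 and 3, the earliest distal peaks in the list. The peak in place 2 (chr1:125180067-125180430, 364 bp) lay in a 21.7 Mb stretch of chromosome 1, 3717 kb from LINC02798, which the table lists as protein-coding, and 3608 kb from the pseudogene EMBP1. The peak in place 3 (chr16:46390526-46390845, 320 bp) lay in a 10.4 Mb stretch of chromosome 16, 188 kb from SHCBP1 and 78.7 kb from the pseudogene ANKRD26P1. A further 2 peaks lay within 1 Mb of such a stretch, in places 527 (chr10:42306190-42306510, 268 kb from ZNF33B) and 774 (chr16:35719705-35720025). No list of regions that collect reads in many experiments was applied, and its bearing on these peaks was not tested.

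Near chromosome ends the share of distal peaks was below the share of distal bases there, with the gene-free stretches not left out. Within 5 Mb of an end, taken as position 1 or the end of the last annotated gene, lay 15 peaks (4.56%, 2.78% to 7.39%), against 6.63% of distal bases, which the interval includes. Within 1 Mb lay 1 peak (0.304%, 0.0537% to 1.70%), against 1.11% of distal bases, which the interval also includes. That peak stood in place 273 (chr3:58116-58454), 58.3 kb from the low end of chromosome 3 and, by listed position, 47.1 kb from LOC124905351. It is counted below as inside the lncRNA genes LOC101928669, listed from chr3:4089, and LOC105376921. Whether these listed genes lie on chromosome 3 itself or on another scaffold was not checked. The TCF3 peak, 1702 kb from the low end of chromosome 19, was among the next closest.

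Counts of distal peaks per chromosome were small, and their departures from an even spread over distal bases were not tested. Without the gene-free stretches the mean was 0.253 peaks per distal Mb. Chromosome 19, the most gene-dense, had 7 where an even spread would give 3.02, and chromosome 14 had 20 where it would give 11.9. Chromosome 5 had 12 where an even spread would give 24.4, and chromosome 22 had 2 where it would give 4.27. The other 18 chromosomes were within 0.729 and 1.28 times the even value. The share of a chromosome's peaks that were distal ran from 15.4% on chromosome 22 and 21.4% on chromosome 17 to 63.3% on chromosome 13 and 7 of 9 peaks on chromosome 21. Copy number in KG1a, a line with a rearranged genome, was not analysed here.

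**Figure D3:**
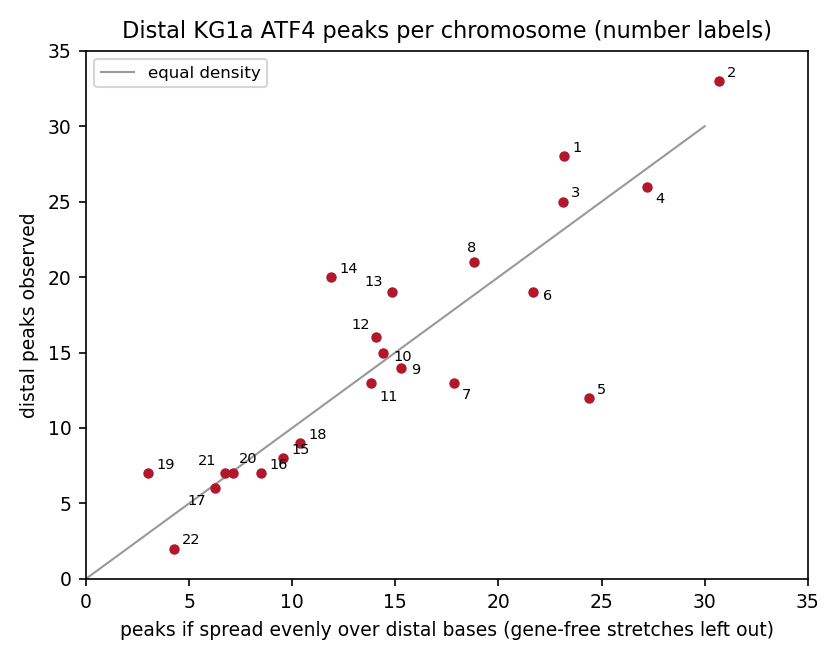
Distal peaks observed on each chromosome (vertical axis, number of peaks) against the number an even spread over distal bases would give (horizontal axis, number of peaks, longest gene-free stretches left out); each point is 1 chromosome and the line marks equality. Chromosomes 14 and 19 lie above the line, with 20 and 7 peaks, and chromosome 5 lies farthest below it with 12.

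Genes for lncRNA held the centres of 83 distal peaks (25.2%, 20.8% to 30.2%), against 16.3% of all 860 peaks. The share was higher than in peaks deep inside protein-coding genes, where it was 28 of 296 (9.46%, two-sided Fisher's exact test, adjusted p = 1.8e-06 by Benjamini-Hochberg over 9 tests). Near gene ends it was 29 of 235 (12.3%). The space open to each class differs in the same way, since lncRNA genes cover 21.9% of distal bases (24.6% without the gene-free stretches), 6.85% of bases deep inside genes and 11.5% of bases near gene ends. The interval of the distal share includes both shares of distal bases.

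The lncRNA genes that held distal peaks were long ones. There were 85 different host genes, 3 peaks lay in more than 1 of them, and the median host length was 104 kb against 9.07 kb for all 17795 lncRNA genes on these chromosomes. A longer gene offers more bases to a peak, and this was not corrected for. Of the 85 hosts, 34 have a symbol that is not a LOC number. They include GCLC-AS1, whose peak lay 13.1 kb from GCLC, the catalytic subunit gene of glutathione synthesis (chr6:53484032-53484360, place 695). Others are GAS1RR, whose peak lay 18.5 kb from GAS1, and LINC02036, whose peak lay 67.6 kb from HES1, a Notch target gene. LOC105371657, 454 kb long and on chromosome 1, was the 1 host with 2 peaks.

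Ends of lncRNA genes had 12 distal peaks within 1 kb (3.65%, 2.10% to 6.27%), 6 with the centre inside an lncRNA gene and 6 with it outside. The peaks at MIATNB, LOC102724467 and LOC124904731, described above, were the 3 wider than 400 bp. Peaks closer than 100 bp to an end, beside the one at MIATNB, were those at LOC124909370 (41.5 bp; ZNF621 at 181 kb), LOC105369851 (73.5 bp; ZDHHC17 at 99.1 kb) and LOC100506446 (76.5 bp; ARF6, a small GTPase gene, at 22.7 kb). The other 6 lay at LOC105369368 near MYEOV, MYOSLID-AS1 near KLF7, LOC105372514 near SHLD1, LOC105377411 near FAT4, LOC124905012 near EPCIP and LOC105370232 near PCDH20. Their widths ran from 320 to 370 bp and their places from 279 to 795.

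Pseudogenes held the centres of 7 distal peaks (2.13%, 1.03% to 4.33%), against 1.4% of all 860 peaks. Pseudogenes cover 2.47% of distal bases. The counts were 3 of 235 near gene ends and 2 of 296 deep inside genes, and neither difference passed the threshold of 0.05 (two-sided Fisher's exact test, adjusted p = 0.60 and 0.23). The widest of the 7, at 474 bp, lay in SMURF2P1-LRRC37BP1 (chr17:30587207-30587680), 59.9 kb from GOSR1, a Golgi transport gene. The earliest, in place 72, lay in ABCC13, an ABC transporter pseudogene, 70.5 kb from HSPA13 (chr21:14300418-14300761). The others lay in ZNF788P, RSL24D1P9, PDE4DIPP6, LOC128966557 and ENPP7P8. Reads from near-identical copies can be assigned to the wrong copy, and the handling of such reads is not stated in the labels.

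Other annotations were rare at distal peaks. The T-cell receptor alpha locus held 1 centre (chr14:22461917-22462289), which also lay in the lncRNA gene TRD-AS1. MicroRNA genes lay within 10 kb of 2 peaks, MIR572 at 4.04 kb and MIR4426 at 6.67 kb. Counting every annotated gene, 181 distal peaks (55.0%) were more than 10 kb from any, 58 (17.6%) more than 50 kb and 28 (8.51%, 5.95% to 12.03%) more than 100 kb.

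Wide peaks were fewer among distal peaks than near gene ends. Distal widths ran from 310 to 1023 bp with a median of 340 bp, and the smallest width, 310 bp, was shared by the 3 classes. Widths above 400 bp were found in 34 distal peaks (10.3%, 7.49% to 14.1%), against 13% of all 860. Near gene ends 47 of 235 (20.0%, 15.4% to 25.6%) were that wide, a higher share (two-sided Fisher's exact test, adjusted p = 0.0067). Deep inside genes 31 of 296 were (10.5%, 7.48% to 14.5%), a difference of -0.14 percentage points (adjusted p = 1, Fisher's exact test). With the limit of all 3 classes moved to 50 kb, 510 peaks counted as near gene ends. The difference from them was -6.38 points (Fisher's exact test, adjusted p = 0.11).

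Distal peaks also stood later than peaks near gene ends in the deposited list, whose order has no stated meaning. The first 25% of the list held 65 distal peaks (19.8%, 15.8% to 24.4%), against 24.4% of all 860. Of peaks near gene ends 73 of 235 (31.1%) were in it, a higher share (two-sided Fisher's exact test, adjusted p = 0.0084), and of peaks deep inside genes 72 of 296 (24.3%, adjusted p = 0.23). In successive stretches of 25% of the list, distal peaks made up 65 of 210, 76 of 216, 96 of 218 and 92 of 216 peaks. The share was thus 31.0% in the first stretch and 42.6% in the last. The call was lost with distal at more than 50 kb from a gene (-7.01 points, Fisher's exact test, adjusted p = 0.11) and in the widest 50% of the list (-10.0 points, adjusted p = 0.13). Of the 65 early distal peaks 10 were wider than 400 bp (15.4%), and of the 264 later ones 24 (9.09%). Among peaks of 400 bp or less the difference from peaks near gene ends was -6.89 points (Fisher's exact test, adjusted p = 0.15, an alternative chosen after seeing the data).

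**Figure D4:**
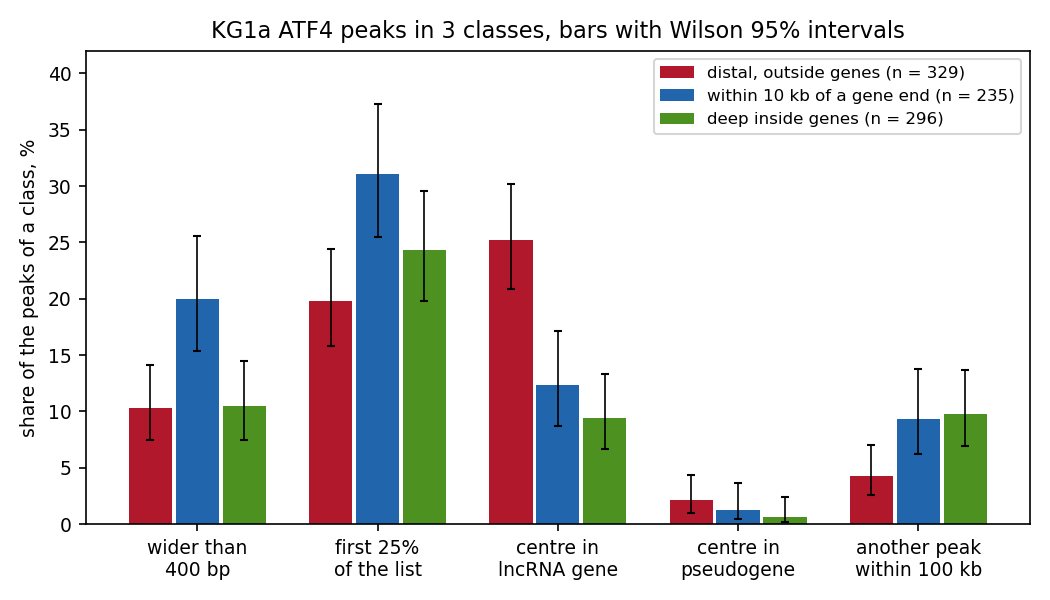
Share of peaks (vertical axis, %) in 3 classes of KG1a peaks that are wider than 400 bp, stand in the first 25% of the list, have their centre in an lncRNA gene or a pseudogene, or have another peak within 100 kb; error bars are Wilson 95% intervals. Distal peaks (red) are lowest in the spacing measure, at 4.26%, and highest in the lncRNA measure, at 25.2%.

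Distal peaks inside and outside lncRNA genes can be set side by side. Of the 83 inside, 13 were wider than 400 bp (15.7%, 9.39% to 24.98%) and 11 stood in the first 25% of the list (13.3%, 7.56% to 22.2%). Of the 246 outside lncRNA genes the counts were 21 (8.54%, 5.65% to 12.7%) and 54 (21.95%, 17.2% to 27.5%). The intervals overlap in both measures, and these differences were not tested. Of the 10 widest distal peaks 6 lay in lncRNA genes. They were the peaks nearest to KLHDC4 and CRYBA4, the 660 bp peak nearest to NUF2, the 620 bp peak nearest to BCHE, the 581 bp peak nearest to TUSC1 and the 530 bp peak nearest to TMEM229A. Early peaks that were not wide included those in place 21, 365 kb upstream of SORCS1, and place 33, 25.04 kb downstream of NDST4.

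**Figure D5:**
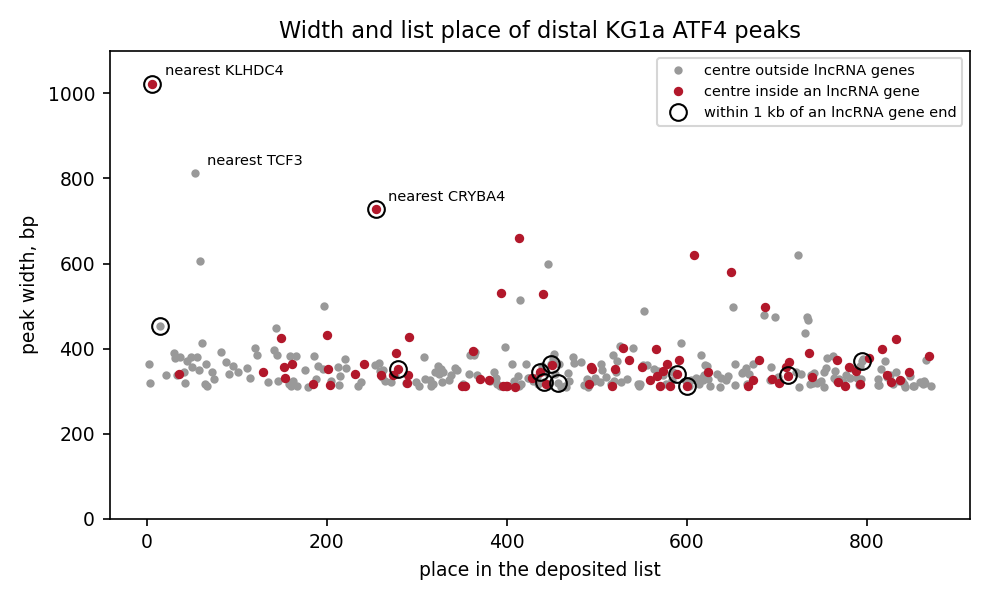
Width in bp (vertical axis) against place in the deposited list (horizontal axis) of the 329 distal peaks; red points have their centre inside an lncRNA gene and rings mark the 12 within 1 kb of an lncRNA gene end. The ringed peak at top left, 1023 bp wide in place 6, is the one nearest to KLHDC4, and most points lie between 310 and 400 bp at every place.

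Distal peaks stood alone more often than other peaks. The nearest other peak of any class was a median of 1358 kb away, with quartiles of 541 kb and 2469 kb and a smallest distance of 20.7 kb. Another peak within 100 kb was found for 14 distal peaks (4.26%, 2.55% to 7.02%), against 7.56% of all 860. The count was 22 of 235 near gene ends (9.36%, adjusted p = 0.039) and 29 of 296 deep inside genes (9.80%, adjusted p = 0.016), both by two-sided Fisher's exact test. The lower density of peaks in distal space was not corrected for. Both calls were lost with the limit of all 3 classes moved to 50 kb (differences of -4.30 and -3.23 points, Fisher's exact test, adjusted p = 0.11 and 0.30). They were also lost in the widest 50% of the list (-7.08 and -6.05 points, Fisher's exact test, adjusted p = 0.081 and 0.13).

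Pairs of distal peaks within 100 kb of each other numbered 5. The closest pair lay 20.7 kb apart upstream of ZDHHC17, a palmitoyltransferase gene (chr12:76664860-76665224 and chr12:76685538-76685870), and 1 of its peaks sat at the start of LOC105369851. At GOSR1 the peaks were 22.99 kb apart, and 1 of them was the widest peak inside a pseudogene. The pairs nearest to DEFB108B and BRINP3 were 46.6 and 64.7 kb apart, and the BRINP3 pair shared the host LOC105371657. The fifth pair, also 64.7 kb apart, lay between HES1 and CPN2, with 1 peak nearest to each. No pair was closer than 10 kb.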

How the data were processed

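ATF4 ChIP-seq was done in KG1a cells and mouse bone marrow, with 1 precipitated and 1 input library each. The submitters' processing notes list the tools Bowtie2, CASAVA 1.4, deepTools and MACS2 and the builds GRCh38 and GRCm38. Settings, thresholds and depth are not stated there or in the labels. The deposited KG1a list holds 3 columns, chromosome, start and end in bases, with no score. Starts were read as counted from 0 and are printed counted from 1.

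Peaks were placed against RefSeq genes of GRCh38.p14, which shares chromosome coordinates with GRCh38. On chromosomes 1 to 22 there were 19126 protein-coding genes, 17795 lncRNA genes and 15727 pseudogenes. Listed positions were read as chromosome positions, and genes placed only on alternate or unlocalised scaffolds were not told apart. GSTT1, for example, bounds a desert that starts at chr22:278487. Distances, deserts, gene-free stretches and lncRNA hosts at such genes may be wrong, and these genes were not counted. Strands and sequences came from the RefSeq promoter table of 35116 windows. Chromosome lengths, centromeres, assembly gaps and lists of problem regions were not used.

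Distal peaks were compared with both other classes by two-sided Fisher's exact tests (SciPy 1.17.1), adjusted by Benjamini-Hochberg over 9 tests, with Wilson 95% intervals. Shares of bases are descriptions with no test. Peaks named were the 10 farthest, 10 widest and 10 earliest, those within 1 kb of an lncRNA gene end, those inside a pseudogene, those nearest to a listed gene and the closest pairs. Others were named after their values were seen, such as the closest pairs up to 100 kb and some lncRNA hosts. The members and lists were chosen with earlier results of these data known. Alternatives were other distances, widths, list shares, spacings and desert lengths, the widest 50% of the list, and 2 added after seeing the data. Scripts were checked on simulated data. The planned motif search over all peaks and flanks was not run, since no genome sequence was used here.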

Additional observations from a re-analysis of the deposited data

Results flagged for a closer look

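A signal in data that the comparisons did not use was found at 2 places. On chromosome X, 4 of the 9 KG1a peaks met the same distance rule. They include peaks 259 kb from CPXCR1 (373 bp, place 206), 385 kb from CXorf51B (311 bp, place 403) and 10.3 kb from CCNQ (320 bp, place 658). On unplaced scaffolds, for which genes were not used, lay 4 peaks, in places 15, 28, 71 and 135 with widths of 315, 395, 682 and 347 bp.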

How the results depend on the processing

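Of 58 tested differences recomputed under other settings, 46 kept their direction and their side of the threshold. The higher lncRNA share of distal peaks against peaks deep inside genes kept its call under its 6 alternatives, at 15.9 to 20.8 percentage points. At the main setting, lncRNA genes cover 21.9% of distal bases and 6.85% of bases deep inside genes. None of the alternatives corrected for this difference in space, so they do not tell it apart from a preference of the peaks. Differences below are distal minus the other class in percentage points, each exact p is the adjusted p of a two-sided Fisher's exact test, and the causes were not tested. Moving the distance limit to 50 kb changed all 3 classes, with 221 distal peaks, 510 near gene ends and 129 deep inside genes. Against peaks near gene ends, width then gave -6.38 (exact p = 0.11), list order -7.01 (exact p = 0.11) and spacing -4.30 (exact p = 0.11). Against peaks deep inside genes, spacing gave -3.23 (exact p = 0.30) and width turned to 1.75 (exact p = 0.70). In the widest 50% of the list, order against peaks near ends gave -10.0 (exact p = 0.13), and spacing gave -7.08 (exact p = 0.081) and, against deep peaks, -6.05 (exact p = 0.13). Against deep peaks the width difference turned to 3.53 at a limit of 350 bp (exact p = 0.41), and the order difference to 0.47 in the first 10% of the list (exact p = 0.99). No distal peak or peak near a gene end had another within 10 kb, a difference of 0 (exact p = 1). In peaks of 400 bp or less, order against peaks near ends gave -6.89 (exact p = 0.15). Deserts of at least 500 kb held 187 distal peaks in place of 123, which is 56.8% of peaks against 63.4% of distal bases. Without the gene-free stretches the shares were 56.6% and 58.8%. Leaving out the distal peaks inside or within 5 Mb of a gene-free stretch changed no call. That left 312 distal peaks, while the 235 near gene ends and the 296 deep inside genes were all kept. With 1 library per group, no library could be left out.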
